A study of Homo sapiens with 17 samples.

Results

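L1PB copies belong to an older primate lineage of LINE-1 (L1), the retrotransposon family that copies itself through RNA. They were chosen by name alone, as every annotated repeat locus whose subfamily name starts with L1PB, which gave 25354 of the 3594049 repeat loci counted. The 8 subfamilies held 11074 (L1PB1), 5465 (L1PB4), 2738 (L1PB3), 2276 (L1PB2), 1789 (L1PBa), 1349 (L1PB), 433 (L1PBa1) and 230 (L1PBb) copies. Reads were assigned to 21245 of them in at least 1 library, and the other 4109 were at 0 in all 17 libraries.

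The study sequenced RNA recovered with the 2 L1 proteins from N2102Ep cells, a line that was grown from a human embryonal carcinoma. The groups were 4 immunoprecipitations of ORF2p (ORF2p RIP), 4 of ORF1p (ORF1p RIP), 3 mock immunoprecipitations (mock IP, whose labels carry mIgG) and 6 libraries of total RNA, which carry series names b (replicates 1 and 2) and bl (replicates 3 to 6). The labels name N2102Ep clone 2/A6 for ORF2p RIP, mock IP and total RNA, and N2102Ep with no clone for ORF1p RIP, so antibody, clone and library batch cannot be told apart in any comparison that sets ORF1p RIP against another group. No label names a library batch, so batch cannot be told apart from antibody in ORF2p RIP over mock IP either. The labels name no genotype change, drug or time for any group, do not say that replicates are separate cultures, and do not say whether the mock antibody matches that of either RIP, so the p-values measure only the spread between these libraries.

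An intact L1 encodes ORF1p, an RNA-binding chaperone that coats the L1 transcript, and ORF2p, an endonuclease and reverse transcriptase that copies RNA into a new genomic site. Both proteins are known to bind preferentially the RNA that encoded them, which is called cis preference. Most copies of old subfamilies are cut short or mutated, cannot move, and are read either from their own remnant promoter or as part of another transcript that runs through them.

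The reads assigned to repeats numbered between 9795032 and 17056092 in ORF2p RIP, 7693841 and 9125527 in ORF1p RIP, 12703395 and 16271143 in mock IP, and 8937441 and 19670774 in total RNA. HERVH and its LTR7 promoters, whose RNA is a known marker of human pluripotent cells, took a mean of 6.48%, 4.37%, 20.2% and 10.04% of repeat reads in ORF2p RIP, ORF1p RIP, mock IP and total RNA. Replicate 3 of ORF1p RIP stood apart from its 3 partners, with higher values for all 8 L1PB subfamilies, and values without it are given beside results for the subfamilies and copies in which it lay far above its partners. The ORF1p RIP libraries also had few or no reads at many loci that the other 3 groups covered. Of 71437 loci with enough reads to test, 3658 (5.12%) had a mean below 0.5 CPM (counts scaled to a fixed library size) in ORF1p RIP and at least 5 CPM in each other group. The same held for 69 of 1028 tested L1PB copies (6.71%), and for 0 of the L1PB copies when ORF2p RIP, mock IP or total RNA was the low group. The cause was not tested.

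The copies had a median length of 482 bp, against 321 bp for all L1 loci, and 541 of them reached 5 kb. Their median divergence from the subfamily consensus was 12.2%, against 21.2% for all L1, with medians of 10.2% for L1PB1, 11.3% for L1PB2 and 19.6% for L1PBb. Gene spans of the RefSeq annotation (GRCh38.p14) covered 51.2% of the copies, against 60.0% of all L1 loci, and 10.4% lay on the X chromosome, against 7.05% of all L1 loci.

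Few annotated start sites lay in these copies. Of 35116 RefSeq promoter windows (250 bases before to 50 after a gene's start, GRCh38), 12 overlapped an L1PB copy and 4 lay wholly inside one. The windows of 2 long noncoding loci that passed the filter for testing are printed here because reads of their copies were close to absent from ORF1p RIP. They were picked for low ORF1p RIP values, so the p-values for ORF1p RIP below are no separate support. Capitals mark the bases inside an L1PB copy, written on the strand of the gene, which is opposite to that of the copies.
LOC124901391, chr6:122568530-122568829, minus strand: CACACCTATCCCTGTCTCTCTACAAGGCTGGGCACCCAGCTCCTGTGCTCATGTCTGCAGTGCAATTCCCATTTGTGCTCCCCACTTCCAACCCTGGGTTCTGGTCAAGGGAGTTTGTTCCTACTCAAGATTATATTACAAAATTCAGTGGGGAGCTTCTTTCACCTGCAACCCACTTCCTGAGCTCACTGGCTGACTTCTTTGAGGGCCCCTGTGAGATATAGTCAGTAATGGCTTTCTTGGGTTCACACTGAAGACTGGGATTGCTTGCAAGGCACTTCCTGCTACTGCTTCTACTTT
LOC124905000, chr21:17931159-17931458, minus strand: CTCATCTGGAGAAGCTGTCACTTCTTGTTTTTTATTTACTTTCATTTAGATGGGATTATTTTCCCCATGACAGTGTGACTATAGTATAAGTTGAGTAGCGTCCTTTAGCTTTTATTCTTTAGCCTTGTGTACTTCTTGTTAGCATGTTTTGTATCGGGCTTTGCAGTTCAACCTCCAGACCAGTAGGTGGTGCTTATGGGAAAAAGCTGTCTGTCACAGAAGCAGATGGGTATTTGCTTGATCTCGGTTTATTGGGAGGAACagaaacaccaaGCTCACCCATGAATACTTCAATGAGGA
All 300 bases of the first window lay in an L1PB2 copy (chr6:122568244-122572317, divergence 19.6%). That copy had 13.1, 15.2, 8.22 and 14.1 CPM in ORF2p RIP, 0, 0.124, 0 and 0.342 CPM in ORF1p RIP, 28.7, 19.2 and 20.1 CPM in mock IP, and between 11.3 and 47.9 CPM in total RNA. It was lower in ORF1p RIP than in mock IP, by a log2 change of -7.43 ± 0.70 (SE; adjusted p = 1.38e-08), while ORF2p RIP over mock IP gave -0.84 ± 0.47 (adjusted p = 0.167). In the second window 262 bases lay in an L1PB4 copy (chr21:17931197-17931753, divergence 23.0%), which averaged 4.18 ± 2.76 CPM in ORF2p RIP, 0.137 ± 0.163 CPM in ORF1p RIP, 7.06 ± 0.644 CPM in mock IP and 14.4 ± 7.27 CPM in total RNA (SD, n = 4, 4, 3 and 6). It too was lower in ORF1p RIP than in mock IP, by a log2 change of -5.46 ± 0.80 (SE; adjusted p = 4.22e-06), and did not pass in ORF2p RIP over mock IP (-0.77 ± 0.57, adjusted p = 0.304). Another 27 bases lay in a second L1PB4 copy (chr21:17930796-17931185, divergence 34.2%), which averaged 1.87 ± 1.12 CPM in ORF2p RIP, 0.0552 ± 0.0638 CPM in ORF1p RIP and 5.89 ± 0.949 CPM in mock IP. This one was lower than mock IP in both, by -1.65 ± 0.43 in ORF2p RIP (adjusted p = 0.00407) and -6.38 ± 0.65 in ORF1p RIP (adjusted p = 4.19e-08). On the strand of the copies, the covered bases were 31.0% A and 19.3% T in the first window, and the 262 bases of the second 38.5% A and 21.0% T.

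The hairpin of 1 microRNA, MIR4445, lay wholly in an L1PB1 copy (chr3:109601948-109603809, plus strand, divergence 9.9%), and it is shown as the one case where a copy carries an annotated small RNA. RefSeq gives these sequences, with the seed (bases 2 to 8) of each mature arm in capitals.
MIR4445 hairpin, chr3:109602828-109602897, plus strand: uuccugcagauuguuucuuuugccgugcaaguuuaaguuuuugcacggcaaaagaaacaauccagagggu
hsa-miR-4445-5p: aGAUUGUUucuuuugccgugca
hsa-miR-4445-3p: cACGGCAAaagaaacaaucca
The whole copy had 131.1 reads in ORF2p RIP, 1 in ORF1p RIP, 88.2 in mock IP and 317 in total RNA, summed over each group's libraries. These are reads of long RNA over the 1862 bp of the copy and say nothing of the mature microRNA.

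L1PB reads made up 1.66%, 1.78%, 1.74% and 1.63% of repeat reads in ORF2p RIP, 0.813%, 0.846%, 1.10% and 0.839% in ORF1p RIP, and 0.947%, 0.952% and 0.886% in mock IP. In total RNA the share was 0.823% and 0.821% in series b and 1.83%, 1.45%, 1.38% and 1.52% in series bl. Every ORF2p RIP library was above every ORF1p RIP and mock IP library, while total RNA overlapped all 3 groups. As a share of L1 reads alone, L1PB took 3.51% ± 0.0471 in ORF2p RIP, 2.57% ± 0.0178 in ORF1p RIP, 3.47% ± 0.160 in mock IP and 3.55% ± 0.344 in total RNA (SD, n = 4, 4, 3 and 6). Within L1, ORF2p RIP thus overlapped mock IP and total RNA, and the ORF1p RIP libraries were the lowest.

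The 8 subfamilies were compared with an edgeR quasi-likelihood test fitted on 1074 subfamilies, and calls needed both an adjusted p under 0.05 and a 2-fold change. L1PB1 had 11531, 12264, 11774 and 10890.3 CPM in ORF2p RIP, 3697, 3773, 6899.9 and 3684 CPM in ORF1p RIP, and 4494, 4065 and 3899 CPM in mock IP. Total RNA held between 3188 and 8458 CPM of L1PB1, with a median of 5891. All 4 ORF2p RIP libraries were above every other library, and replicate 3 of ORF1p RIP was the only one of its group above mock IP. L1PB2 had 2831, 2953, 2766 and 2663 CPM in ORF2p RIP, 706, 728, 1225 and 706 CPM in ORF1p RIP, 917, 880.5 and 799 CPM in mock IP, and between 591 and 1788 CPM in total RNA. Here too ORF2p RIP lay above all other libraries.

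**Figure D1:**
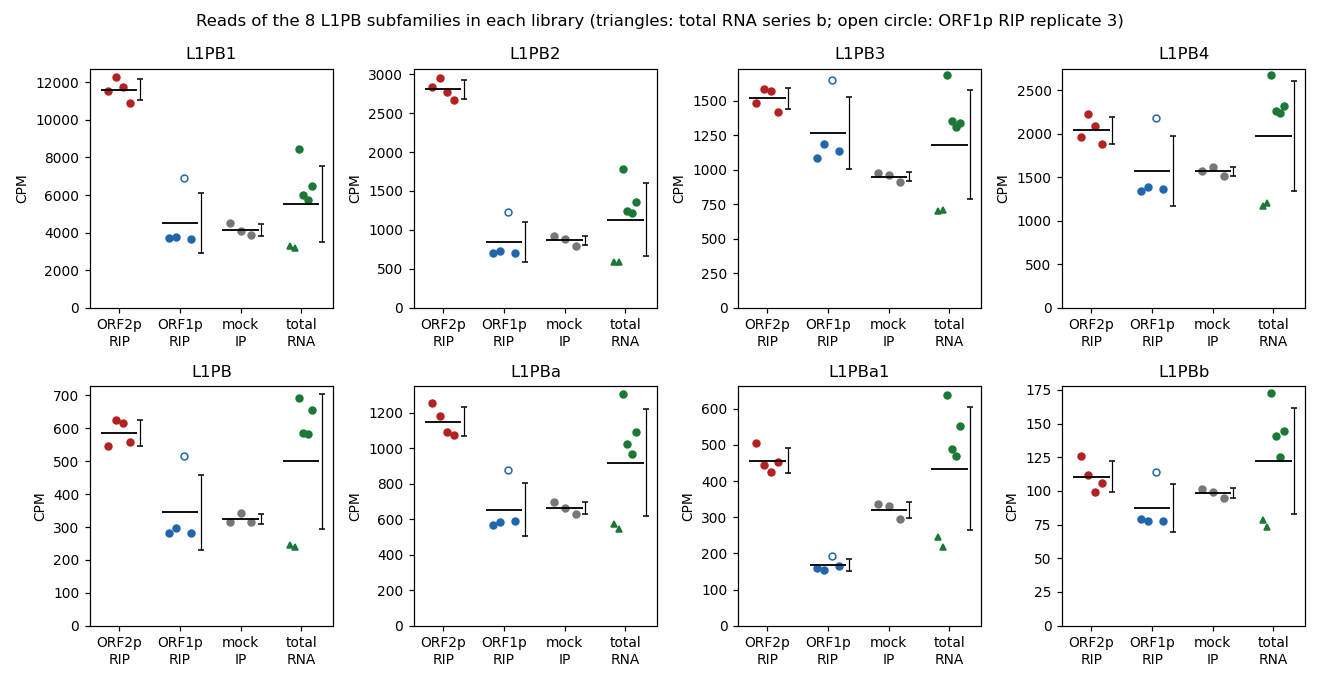
Reads of each L1PB subfamily in CPM (vertical axes, linear, each from 0) in the 4 ORF2p RIP, 4 ORF1p RIP, 3 mock IP and 6 total RNA libraries, with group mean (line) and SD (bar). The ORF2p RIP libraries of L1PB1 and L1PB2 lie above all others, and for most subfamilies 1 open circle, ORF1p RIP replicate 3, lies above its 3 partners.

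In ORF2p RIP over mock IP, L1PB1 rose 2.80-fold, a log2 change of 1.48 ± 0.31 (SE; adjusted p = 0.0016), and L1PB2 rose 3.24-fold, a log2 change of 1.70 ± 0.33 (adjusted p = 0.00106). These 2 of 8 subfamilies were called higher and 0 lower, against 6.7% higher and 1.49% lower of all subfamilies tested. L1PBa was also above mock IP in every library, with 1254, 1180.5, 1091 and 1077 CPM in ORF2p RIP against 699.5, 661 and 631 CPM in mock IP, but its change of 0.79 ± 0.25 on the log2 scale was under 2-fold (adjusted p = 0.0249). The other 5 subfamilies had log2 changes from 0.17 (L1PBb) to 0.85 (L1PB) with adjusted p from 0.0503 upward. Median log2 changes were 0.73 for the 8 L1PB subfamilies, 1.72 for 9 young L1 subfamilies (L1HS and L1PA2 to L1PA8A), 1.14 for L1PA10 to L1PA17, 0.79 for L1MA and 0.58 for all L1, beside -0.03 for all 1074.

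Much of the L1PB2 change sat in 1 copy. With the copy that held the most reads removed from each subfamily, L1PB2 in ORF2p RIP over mock IP had a log2 change of 0.66 (edgeR adjusted p = 0.145) and was no longer called, nor was it from copies outside gene spans alone (0.43, adjusted p = 0.343), while L1PB1 had 1.23 (adjusted p = 0.00922).

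In ORF1p RIP over mock IP, 0 of 8 subfamilies were called by edgeR in either direction, against 7.36% higher and 8.75% lower of all subfamilies. At an unadjusted p under 0.05 the same test counted 1 (L1PBa1), and DESeq2 called 0. L1PBa1 had 160.2, 155, 193 and 164 CPM in ORF1p RIP and 336, 332 and 295 CPM in mock IP. Its libraries did not overlap and its log2 change was -0.94 ± 0.28 (adjusted p = 0.00949), just under 2-fold. Without replicate 3 of ORF1p RIP the change was -1.01 (adjusted p = 0.0137) and passed both limits. L1PB3 had 1086, 1188, 1649 and 1136 CPM in ORF1p RIP against 975, 958 and 910.3 CPM in mock IP, all higher, with a log2 change of 0.42 ± 0.25 that did not pass (adjusted p = 0.179). The remaining 6 lay between -0.18 and 0.12 on the log2 scale, and between -0.33 and -0.16 without replicate 3 of ORF1p RIP, with none called.

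ORF2p RIP over ORF1p RIP set the proteins against each other, with clone unmatched. L1PB2 was higher in ORF2p RIP by a log2 change of 1.74 ± 0.30 (adjusted p = 0.000116), L1PBa1 by 1.44 ± 0.26 (adjusted p = 0.000208) and L1PB1 by 1.36 ± 0.28 (adjusted p = 0.000539). These 3 of 8 compare with 12.4% of all subfamilies called higher and 6.52% called lower. L1PBa1 had 505, 444, 424 and 452 CPM in ORF2p RIP, every value above all 4 in ORF1p RIP. L1PBa at 0.82 ± 0.23 and L1PB at 0.77 ± 0.31 had adjusted p of 0.00685 and 0.0436 but were under 2-fold. L1PB3, L1PB4 and L1PBb had changes of 0.26 to 0.37 that did not pass. Without ORF1p RIP replicate 3, 4 subfamilies were called, L1PB2 at 1.97, L1PB1 at 1.64 and L1PBa1 at 1.51 (adjusted p = 7.77e-05, 0.000111 and 0.000543), with L1PB added at 1.03 (adjusted p = 0.0123), while L1PBa had 0.99 and the other 3 had 0.41 to 0.57. Without each subfamily's leading copy, L1PB1 alone was called, L1PB2 having 0.66 (adjusted p = 0.0657) and L1PBa1 0.95 (adjusted p = 8.57e-05).

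**Figure D2:**
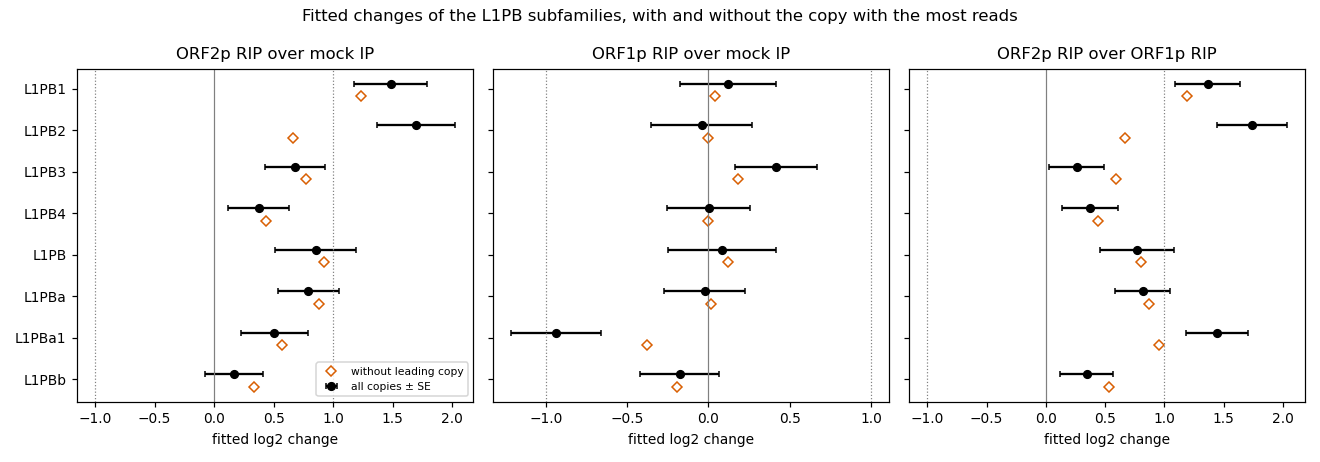
Fitted log2 change of each L1PB subfamily (horizontal axis) in ORF2p RIP over mock IP, ORF1p RIP over mock IP and ORF2p RIP over ORF1p RIP; black points are all copies with SE, open diamonds leave out the copy with the most reads, and dotted lines mark 2-fold. In ORF2p RIP over mock IP, L1PB2 is at 0.66 without that copy and 1.70 with it; in ORF1p RIP over mock IP, L1PBa1 is at -0.38 without it and -0.94 with it.

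Against total RNA, L1PB1 in ORF2p RIP was 2.10-fold higher (log2 change 1.07 ± 0.24, edgeR adjusted p = 0.00305) and L1PB2 2.48-fold higher (1.31 ± 0.26, adjusted p = 0.00102), 2 of 8 beside 5.12% of all subfamilies higher and 1.3% lower. This comparison rested on the total RNA series. Against series b alone 5 of the 8 were called higher in ORF2p RIP, and against series bl alone 1. No share of all subfamilies is given for either series, so these counts describe L1PB alone. The comparison with total RNA also rested on leading copies. Without them L1PB1 had 0.78 (adjusted p = 0.0323) and L1PB2 0.25 (adjusted p = 0.504) and neither was called. ORF1p RIP over total RNA had 1 call, L1PBa1, which was lower by a log2 change of -1.37 ± 0.25 (adjusted p = 0.000163), beside 8.29% of all subfamilies lower and 9.12% higher. L1PBa1 averaged 168 ± 16.9 CPM in ORF1p RIP (SD, n = 4), against 231 ± 19.96 CPM in series b (n = 2) and 537 ± 75.9 CPM in series bl (n = 4) of total RNA, and it was not called against series b alone (-0.46) or without its leading copy (-0.47). The other subfamilies in ORF1p RIP were at 0.20 to 0.85 over series b alone and -0.87 to -0.17 over series bl alone, with none called. In mock IP over total RNA 0 of 8 were called (all subfamilies 0.745% higher, 0.0% lower), with log2 changes of -0.62 to -0.31, 0 at an unadjusted p under 0.05 and 0 called by DESeq2. This joined unlike series. Over series b alone the 8 log2 changes were 0.25 to 0.55, with none called. Over series bl alone they were -0.95 to -0.57, each under 2-fold, with edgeR adjusted p of 7.3e-06 to 0.00328.

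Per megabase of annotated copies, L1PB2 had the highest level in ORF2p RIP at 1349.5 CPM per Mb, then L1PB1 at 938, L1PB at 695, L1PBa1 at 643, L1PB3 at 620.5, L1PB4 at 588, L1PBa at 488 and L1PBb at 351. The same 8 lay between 237 and 518 CPM per Mb in ORF1p RIP, 282 and 453 in mock IP, and 388 and 613 in total RNA. L1PB2 led in ORF2p RIP, L1PB3 in ORF1p RIP, L1PBa1 with L1PB4 close behind it in mock IP, and L1PBa1 in total RNA. These ranks rested on single copies. Without the leading copy of each, L1PB1 was highest in ORF2p RIP at 739.6 CPM per Mb, then L1PB at 663, L1PB3 at 610.3 and L1PB2 at 584, and L1PB4 was highest in ORF1p RIP, mock IP and total RNA at 453, 446 and 557 CPM per Mb.

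The most abundant copy was an L1PB1 element outside gene spans (chr7:93807211-93809400, plus strand, hg38, 2190 bp, divergence 8.0%), with the pseudogene NDUFAF4P2 35.3 kb above it and MIR4652 90.2 kb below. It had 2438, 2539, 2460.4 and 2384 CPM in ORF2p RIP, 149.5, 141, 453 and 134 CPM in ORF1p RIP, 51.8, 47.4 and 44.4 CPM in mock IP, and between 15.1 and 107 CPM in total RNA. Both RIP groups lay above mock IP in every library, with ORF2p RIP far the highest. ORF2p RIP over mock IP gave a 51.3-fold rise (log2 change 5.68 ± 0.69, edgeR adjusted p = 3.49e-06), and ORF1p RIP over mock IP a log2 change of 2.20 ± 0.58 (adjusted p = 0.00205), or 1.56 (adjusted p = 0.0116) without ORF1p RIP replicate 3. The copy held 21.2% of L1PB1 reads in ORF2p RIP, 4.496% in ORF1p RIP, 1.15% in mock IP and 1.02% in total RNA. The 11 other tested repeat loci within 10 kb of it had a median log2 change of 1.62 in ORF2p RIP over mock IP. Of its reads 0% were in whole-number values, and how fractions of reads came about was not analysed here. The share was also 0% at chrX:102912636-102915179, chr4:129068225-129073184, chr21:28085174-28087589 and chr6:47546554-47551192, all described below. It was 0.360% at chr6:125686840-125688612, 0.0124% at chr13:54304556-54307844 and 0.0441% at chrX:122234029-122238107. How many reads of these copies were divided between loci is not known, so their own values are uncertain.

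The leading L1PB2 copy (chr6:125686840-125688612, minus strand, 1773 bp, divergence 11%) lies where 2 long noncoding genes overlap, HEY2-AS1 on its strand and LINC02523 on the other. It had 1632, 1667, 1515 and 1554 CPM in ORF2p RIP, 13.98, 14.8, 46.9 and 16.99 CPM in ORF1p RIP, 62.7, 62.7 and 52.3 CPM in mock IP, and between 15.1 and 165 CPM in total RNA. ORF2p RIP was above and ORF1p RIP below every mock IP library. The log2 change was 4.75 ± 0.74 in ORF2p RIP over mock IP (edgeR adjusted p = 4.37e-05), -1.36 ± 0.60 in ORF1p RIP over mock IP (adjusted p = 0.0486) and 6.11 ± 0.70 in ORF2p RIP over ORF1p RIP (adjusted p = 1.49e-07). The call in ORF1p RIP over mock IP was close to the threshold and was lost under 15 of 24 alternative settings (another scaling, filter, tool or set of libraries), with adjusted p up to 0.118. Without replicate 3 of ORF1p RIP the last 2 changes were -1.96 (adjusted p = 0.00899) and 6.71 (adjusted p = 2.91e-07). It took 56.8% of all L1PB2 reads in ORF2p RIP, 2.56% in ORF1p RIP, 6.84% in mock IP and 6.49% in total RNA. Its series b and bl means of 15.2 and 120 CPM differed so much that ORF1p RIP was lower than all total RNA (-1.88 ± 0.55, adjusted p = 0.00402, or -2.48 without its replicate 3) but had a change of 0.59 over series b alone.

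The leading L1PBa1 copy (chr13:54304556-54307844, plus strand, 3289 bp, outside gene spans, 4.13 kb from MIR1297) showed another pattern. It had 158, 165, 147 and 152 CPM in ORF2p RIP, 1.07, 1.37, 0.644 and 1.03 CPM in ORF1p RIP, 109, 122 and 93.5 CPM in mock IP, and between 42.3 and 328 CPM in total RNA. ORF1p RIP was 103-fold below mock IP (log2 change -6.69 ± 0.64, edgeR adjusted p = 1.84e-08), and ORF2p RIP over mock IP was 0.52 ± 0.52 (adjusted p = 0.449). It made up 34.2% of L1PBa1 reads in ORF2p RIP, 0.631% in ORF1p RIP, 33.6% in mock IP and 43.6% in total RNA. Without it the subfamily's change in ORF1p RIP over mock IP was -0.38 (adjusted p = 0.0688).

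The leading L1PB3 copy lies in NEAT1, the long noncoding RNA that scaffolds nuclear paraspeckles (chr11:65432694-65433229, 536 bp). It ran the other way, with 205, 236, 195 and 192 CPM in ORF1p RIP, against 40.2, 23.0 and 33.1 CPM in mock IP, and a log2 change of 2.69 ± 0.33 (edgeR adjusted p = 4.3e-07). In ORF2p RIP it had 20.4 to 32.5 CPM, overlapping mock IP, and mock IP was itself above total RNA (1.54 ± 0.27, adjusted p = 0.00285). The call of mock IP over total RNA was lost under 1 of 26 alternatives, with replicate number as a block (1.44, adjusted p = 0.0693). The median change of its 22 tested neighbours within 10 kb was 2.73 in ORF1p RIP over mock IP, close to its own. This 1 copy held 16.9% of L1PB3 reads in ORF1p RIP and 3.38% in mock IP.

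Of the leading copies of the other 4 subfamilies, those of L1PB4 (chr20:11466541-11470280), L1PB (chr1:195842683-195844180) and L1PBa (chr8:47032034-47033759) were lower in ORF1p RIP than in mock IP, with log2 changes of -2.38 ± 0.61, -2.81 ± 0.83 and -3.92 ± 0.41 (edgeR adjusted p = 0.00169, 0.00472 and 4.84e-08). Without replicate 3 of ORF1p RIP, which had 10.1 CPM of the L1PB4 copy where its partners had 2.88 to 3.35 CPM, the first of these was -3.01 (adjusted p = 0.000376). None of these 3 passed in ORF2p RIP over mock IP. The L1PBb copy (chr2:117479976-117481123) had between 10.05 and 17.98 CPM in ORF2p RIP, 12.6 and 19.2 CPM in ORF1p RIP, 16.5 and 18.1 CPM in mock IP, and 8.71 and 24 CPM in total RNA, and was called in none of the 6 comparisons.

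**Figure D3:**
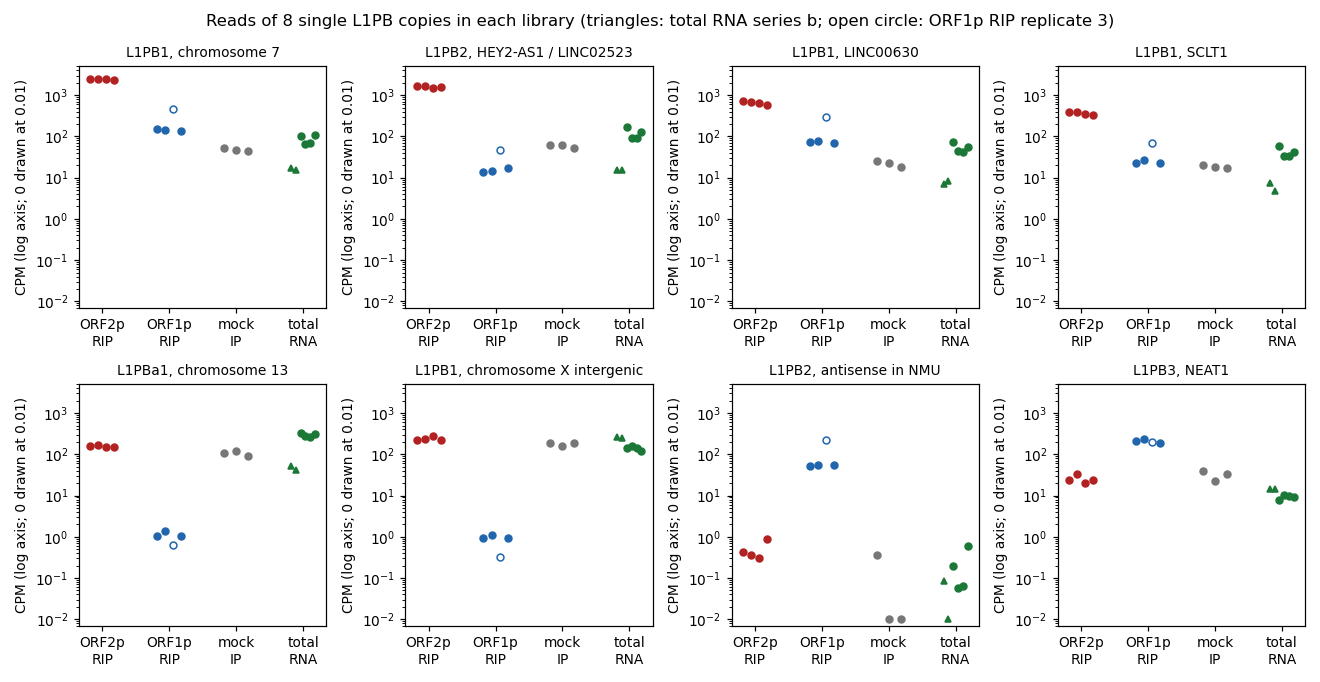
CPM (log axis, values of 0 drawn at 0.01) of 8 single L1PB copies in each library, by group. The copies on chromosome 7, at HEY2-AS1 and LINC02523, in LINC00630 and in SCLT1 are highest in ORF2p RIP, those on chromosome 13 and in the intergenic region of chromosome X lie near 1 CPM in ORF1p RIP, and those in NMU and NEAT1 are highest in ORF1p RIP.

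At the level of copies, 1028 of 25354 had enough reads to be tested (a minimum count of 50 in the edgeR filter, 71437 loci in all). A copy could pass through the group in which it was high, so the counts that follow describe the tested copies only. In ORF2p RIP over mock IP, 291 were called higher (28.3%) and 68 lower (6.61%), against 24.6% and 14.3% of all tested loci, and the median log2 change was 0.34, against 0.03 for all loci. In ORF1p RIP over mock IP, 219 were higher (21.3%) and 430 lower (41.8%), against 36.6% and 35.5% of all tested loci, with medians of -0.63 and 0.21. Without ORF1p RIP replicate 3 these were 191 and 441. When only the ORF1p RIP and mock IP libraries entered the fit and its filter, 375 copies were tested, with 158 higher (42.1%) and 111 lower (29.6%), against 52.2% and 30.6% of all loci tested that way. Between the proteins, 549 were higher and 250 lower in ORF2p RIP over ORF1p RIP, beside 41.1% and 30.7% of all loci. With only those 2 groups, 473 copies were tested, with 266 higher (56.2%) and 134 lower (28.3%), against 41.6% and 33.9% of all loci.

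Against total RNA, 285 L1PB copies were higher and 203 lower in ORF2p RIP (all loci 27.8% and 21.1%), and 197 were higher and 496 lower in ORF1p RIP (all loci 37.2% and 37.5%). Mock IP over total RNA had 15 higher and 13 lower (all loci 5.8% and 2.13%). By subfamily, the share called higher in ORF2p RIP over mock IP was 36.3% of 480 tested L1PB1 copies, 25.5% of 47 L1PB, 24.4% of 119 L1PB3, 24.4% of 82 L1PBa, 22.7% of 22 L1PBa1, 18.5% of 178 L1PB4, 18.2% of 88 L1PB2 and 16.7% of 12 L1PBb copies. L1PB2, the subfamily with the largest summed change, thus had fewer of its tested copies called than L1PB1.

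Large falls were frequent in ORF1p RIP. At least 32-fold below mock IP were 220 tested L1PB copies in ORF1p RIP (21.4%), against 14.8% of tested L1 loci and 17.3% of all tested loci, and 9 (0.875%) were as far above it, against 1.83% of tested L1 loci and 2.57% of all tested loci. These shares depend on a filter over all groups. With only ORF1p RIP and mock IP in the fit and filter, 29.6% of 375 L1PB copies were called lower, against 30.6% of all loci. Falls of 32-fold were not recounted that way. In ORF2p RIP over mock IP, 36 copies (3.50%) were past 32-fold higher and 2 lower, against 1.06% and 0.195% of all tested loci.

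**Figure D4:**
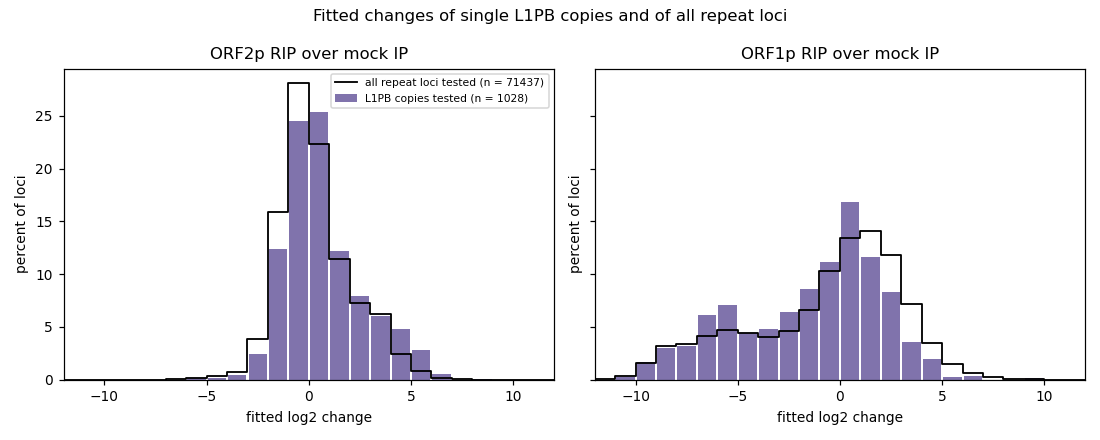
Percent of tested loci (vertical axis) by fitted log2 change (horizontal axis, bins of 1) in ORF2p RIP over mock IP and ORF1p RIP over mock IP; bars are 1028 L1PB copies and the line is all 71437 loci. ORF2p RIP changes centre near 0 with more L1PB copies on the right, and ORF1p RIP changes have a broad left arm of large falls in both sets.

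Several copies with large rises in ORF2p RIP lie in gene spans. LINC00630, a long noncoding gene on the X chromosome, holds 4 of the named copies on its own strand. The longest (chrX:102912636-102915179, 2544 bp, L1PB1) had 709, 693, 641 and 579 CPM in ORF2p RIP, 74.8, 76.7, 289 and 68.1 CPM in ORF1p RIP, and 25.8, 22.4 and 17.7 CPM in mock IP. It rose by a log2 change of 4.90 ± 0.77 in ORF2p RIP over mock IP (edgeR adjusted p = 4.84e-05) and of 2.53 ± 0.68 in ORF1p RIP over mock IP (adjusted p = 0.00242), the second being 1.74 (adjusted p = 0.0152) without ORF1p RIP replicate 3. The other 3 pieces (chrX:102911046-102912323, chrX:102910845-102911065 and chrX:102916297-102916646) rose by 4.82 ± 0.38, 4.69 ± 0.66 and 6.63 ± 0.65 in ORF2p RIP over mock IP. They lie next to each other in 1 gene, so they are not independent. The piece at chrX:102916297-102916646 passed the filter for testing only through ORF2p RIP, and that at chrX:102910845-102911065 only through the RIP groups. Tests for a rise of these pieces there are thus no separate support.

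SCLT1, which encodes a centriole appendage protein, holds an L1PB1 copy on its own strand (chr4:129068225-129073184, 4960 bp) that had 391, 391, 357 and 334 CPM in ORF2p RIP, against 19.9, 18.2 and 16.7 CPM in mock IP. Its log2 change was 4.33 ± 0.70 (edgeR adjusted p = 6.72e-05), while ORF1p RIP, at 22.6, 26.1, 67.8 and 22.5 CPM, did not pass over mock IP (0.92 ± 0.60, adjusted p = 0.173, or 0.38 with adjusted p = 0.578 without ORF1p RIP replicate 3). A 463 bp L1PB1 piece antisense in VOPP1 (chr7:55460934-55461396) had 59.7, 57.2, 80.2 and 66.2 CPM in ORF2p RIP, 6.40, 7.70, 7.57 and 7.30 CPM in ORF1p RIP, and 1.65, 1.46 and 0.751 CPM in mock IP. It rose in both, by 5.66 ± 0.40 and 2.47 ± 0.35 (adjusted p = 2.19e-08 and 3.16e-06). This piece passed the filter for testing only through the RIP groups, where it was high, so these p-values are no separate support.

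In SCN10A, the gene of a voltage-gated sodium channel of sensory neurons, 2 neighbouring L1PB1 pieces on the gene's strand (chr3:38764226-38769236 and chr3:38769541-38771231) were seen almost only in ORF2p RIP. They passed the filter for testing only through ORF2p RIP, where they were high, so p-values for a rise there are no separate support. The first had 31.2, 25.6, 21.5 and 18.7 CPM in ORF2p RIP, 0.305, 0.486 and 0.376 CPM in mock IP and 0.292 to 1.19 CPM in total RNA, a log2 change over mock IP of 5.92 ± 0.54 (edgeR adjusted p = 4.76e-07). The second held 398.8 reads in ORF2p RIP, 0 in ORF1p RIP, 4 in mock IP and 11 in total RNA. An L1PB3 copy outside gene spans (chr8:83555207-83556200) was similar, with 546.8, 0, 6 and 31 reads in ORF2p RIP, ORF1p RIP, mock IP and total RNA. At least 5 CPM in ORF2p RIP with under 0.5 CPM in each other group was met by 17 of 1028 tested L1PB copies. Of all 71437 tested loci 300 met it, a smaller share.

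Lower in ORF2p RIP than in mock IP were 3 L1PB1 copies in members of the ZNG1 family, at ZNG1DP (chr9:65292464-65295683, log2 change -3.02 ± 0.73), ZNG1B (chr2:113487960-113491174, -2.87 ± 0.70) and ZNG1C (chr9:68291775-68295002, -2.80 ± 0.88), with edgeR adjusted p = 0.00232, 0.00266 and 0.0154. These genes are near-identical copies, and 0% of the reads of the 3 loci were in whole-number values, so their own values are uncertain. The call at ZNG1C was lost under 2 of 24 alternatives (adjusted p up to 0.0651). The copy at ZNG1DP had 3.09, 0.492, 1.47 and 1.30 CPM in ORF2p RIP, against 11.97, 16.1 and 10.7 CPM in mock IP. A sense copy in ERCC8, a gene of transcription-coupled DNA repair (chr5:60936821-60937936), had 0.426, 0.246, 0.628 and 0.137 CPM in ORF2p RIP, 3.52, 3.23, 8.21 and 5.70 CPM in ORF1p RIP, and 3.17, 2.19 and 2.71 CPM in mock IP (ORF2p RIP over mock IP -2.92 ± 0.67, adjusted p = 0.00152). Sense copies in CD2AP (chr6:47546554-47551192), FOXJ3 (chr1:42298314-42299625) and NGLY1 (chr3:25772220-25775304) were among the lowest in ORF2p RIP over total RNA, at -3.49 ± 0.64, -3.89 ± 0.57 and -3.57 ± 0.61. Over total RNA series b alone these were -0.64 (adjusted p = 0.109, not called), -1.90 and -1.99.

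Falls in ORF1p RIP included abundant copies. An L1PB1 copy on the X chromosome (chrX:122234029-122238107, minus strand, 4079 bp) had 224, 239, 272 and 222 CPM in ORF2p RIP, 0.961, 1.12, 0.322 and 0.912 CPM in ORF1p RIP, 189, 162 and 191 CPM in mock IP, and 119.6 to 257 CPM in total RNA. ORF1p RIP was 211-fold below mock IP (log2 change -7.72 ± 0.42, edgeR adjusted p = 1.9e-11), with a median of -7.55 for its tested neighbours, and ORF2p RIP over mock IP was 0.41 ± 0.32 (adjusted p = 0.33). On chromosome 21, copies in LINC01697 (chr21:28087586-28090806 and chr21:28085174-28087589) and outside spans (chr21:27921900-27925585) had 0.228 to 1.49 CPM in ORF1p RIP and 67.6 to 164 CPM in mock IP, with log2 changes of -7.45 ± 0.72, -6.89 ± 0.88 and -7.18 ± 0.77.

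For copies with 0 reads in all 4 ORF1p RIP libraries a fold is only a lower bound, taken against 3 reads over the group. An L1PB2 copy at chr20:40027646-40028157, where 95.5% of reads were in whole-number counts, had 391.8 reads in ORF2p RIP, 0 in ORF1p RIP and 756 in mock IP, at least 179-fold lower in ORF1p RIP than in mock IP. Copies at chr21:22189294-22189651 (L1PB4), chr16:60017991-60020813 (L1PB4, antisense in LINC02141), chrX:121546549-121550943 (L1PBb) and chr5:88037474-88039698 (L1PB2) were at least 123-fold, 110-fold, 99.7-fold and 98.4-fold lower. A copy at chr4:14320277-14321212 was at least 197-fold higher in ORF2p RIP than in ORF1p RIP. In all, 85 of the 1028 tested copies had 0 reads across ORF1p RIP, 5 across ORF2p RIP, 2 across mock IP and 0 across total RNA. The share of all tested loci at 0 reads was not counted, so these counts describe L1PB copies alone. Under 0.5 CPM in ORF1p RIP with at least 5 CPM in each other group were 6.71% of L1PB copies, against 5.12% of all loci.

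A small set was high in ORF1p RIP alone. These copies passed the filter for testing only through ORF1p RIP, where they were high. Their p-values for a rise there are thus no separate support. An L1PB2 copy antisense in NMU, the gene of the neuropeptide neuromedin U (chr4:55630685-55632245), had 0.426, 0.369, 0.314 and 0.891 CPM in ORF2p RIP, 53.4, 53.9, 219.6 and 56.3 CPM in ORF1p RIP, and 0.366, 0 and 0 CPM in mock IP. Its log2 change in ORF1p RIP over mock IP was 9.45 ± 1.06 (edgeR adjusted p = 1.41e-07), from 6.1 reads in mock IP, and 8.63 without ORF1p RIP replicate 3 (adjusted p = 1.24e-07). An L1PB3 copy antisense in SERPINE2, which encodes the protease inhibitor protease nexin-1 (chr2:223982085-223982485), had 62.7, 66.4, 75.03 and 57.0 CPM in ORF1p RIP, against 1.59, 0.425 and 0.301 CPM in mock IP (6.37 ± 0.64, adjusted p = 3.22e-08). Neither passed in ORF2p RIP over mock IP (adjusted p = 0.141 and 0.177).

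An L1PB1 piece outside gene spans (chr22:34628411-34628666) had 584.5 reads in ORF1p RIP, 7.7 in mock IP and 3 in total RNA, with 0 in ORF2p RIP, which puts it at least 247-fold lower in ORF2p RIP than in ORF1p RIP. A 79 bp piece in LINC01411 (chr5:174432864-174432942) had 208 reads in ORF1p RIP, 2 in total RNA and 0 in ORF2p RIP and mock IP, at least 103-fold higher in ORF1p RIP than in mock IP. Copies in LOC124900404 (chr1:98148617-98149072) and EPIC1 (chr22:47772067-47773704) were at 0 reads in ORF2p RIP and at least 117-fold and 109-fold lower there than in ORF1p RIP. With at least 5 CPM in ORF1p RIP and under 0.5 CPM in each other group there were 16 of 1028 tested L1PB copies. Of all 71437 tested loci 1488 met this rule, a larger share.

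Mock IP and total RNA differed at few copies. An L1PB1 piece on the X chromosome (chrX:122231299-122231647), in the same stretch as the copy described above, had 38.6, 29.5 and 38.6 CPM in mock IP, against 3.59 to 11.1 CPM in total RNA (log2 change 2.38 ± 0.37, edgeR adjusted p = 0.00185). The call was lost under 1 of 26 alternatives, with replicate number as a block (2.07, adjusted p = 0.0557). An L1PB1 copy antisense in TXNDC16 (chr14:52474841-52480961, 6121 bp) had 0.855, 0.364 and 0.751 CPM in mock IP, against 0.973 to 2.77 CPM in total RNA (-1.67 ± 0.43, adjusted p = 0.0225). This call was lost under 6 of 25 alternatives, among them series b alone (-1.08, adjusted p = 0.131). The other 6 named copies changed by 1.65 to 3.01 where higher and by -1.96 to -1.45 where lower, and the calls of these 6 were lost under between 1 and 17 alternatives each. These counts turned on the total RNA series, with 268 higher and 6 lower against series b alone, and 47 higher and 410 lower against series bl alone. Shares of all tested loci are not given for either series, so these counts describe L1PB copies alone.

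Where copies sat set apart their shares of reads, over all 25354 members and so with no filter. Copies outside gene spans, 48.8% of copies and 53.8% of their bases, took 41.9% ± 0.760 of L1PB reads in ORF2p RIP, 22.0% ± 1.82 in ORF1p RIP, 35.8% ± 0.284 in mock IP and 36.8% ± 0.360 in total RNA (SD, n = 4, 4, 3 and 6). No ORF2p RIP library (41.1% to 42.9%) or ORF1p RIP library (20.8% to 24.7%) overlapped another group. Replicate 3 of ORF1p RIP had 13.4% in copies against the strand of the gene span, where its partners had 22.7% or more. Copies on the strand of their gene span, 13.5% of copies, took 22.4%, 37.1%, 26.3% and 26.8% in the same groups, and copies against it, 23.5% of copies, took 11.99%, 20.4%, 17.4% and 15.7%. These total RNA means joined unlike series. Copies on the strand took 18.2% and 19.4% in series b and 30.5% to 31.5% in series bl, and copies against it 25.5% and 26.8% in series b and 9.09% to 11.3% in series bl. Without the 10 leading copies the shares outside spans were 38.5%, 20.6%, 34.1% and 35.2%, in the same order of groups.

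**Figure D5:**
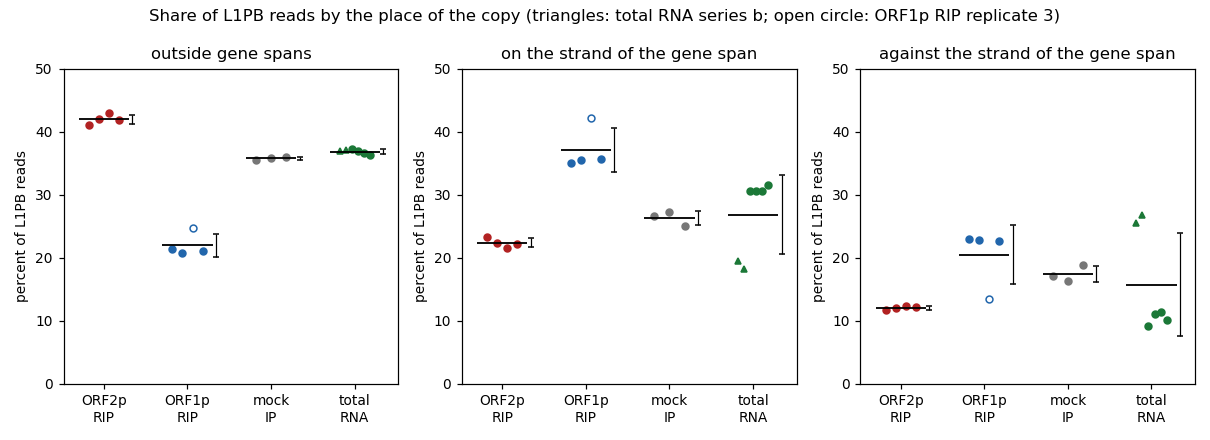
Percent of L1PB reads (vertical axis from 0) in copies outside gene spans, on the strand of the gene span and against it, in each library, with group mean (line) and SD (bar). ORF2p RIP is highest outside spans at 41.1% to 42.9%, and ORF1p RIP is lowest there at 20.8% to 24.7% and highest for copies on the gene's strand.

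Among tested copies, ORF2p RIP over mock IP called higher 37.9% of 145 antisense copies (median log2 change 0.82), 32.6% of 350 outside spans (0.63) and 19.4% of 335 sense copies (-0.37), where all tested L1 loci had 33.5%, 45.8% and 20.9%. For all tested loci outside spans the share was 30.7%, close to that of L1PB, with a median of 0.22. ORF1p RIP over mock IP called lower 58.6% of the copies outside spans (median -2.84), 39.3% of antisense and 24.5% of sense copies. Outside spans, all tested loci had 58.1% lower and a median of -2.83, and all tested L1 loci 44.1% and -0.45. Inside spans, taken without strand, 33.2% of tested L1PB copies were lower, against 27.2% of all tested loci and 24.7% of tested L1 loci.

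By divergence, copies under 10% from their consensus took 37.5% of L1PB reads in ORF2p RIP, 28.4% in ORF1p RIP, 26.1% in mock IP and 25.95% in total RNA. Without the 10 leading copies these were 30.1%, 26.1%, 25.7% and 25.5%. Copies of 5 kb or more took 5.78%, 8.86%, 6.97% and 8.28% of reads, less than their 13.01% of annotated bases in every group. Of 83 tested copies that long, 17 (20.5%) were higher in ORF2p RIP than in mock IP, against 75.8% of 4554 tested L1 loci of that length.

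Copies moved with the repeats around them. For 777 tested copies with another tested repeat locus within 10 kb, Spearman's rho between the copy's log2 change and its neighbours' median was 0.67 in ORF2p RIP over mock IP, 0.89 in ORF1p RIP over mock IP and 0.28 in mock IP over total RNA. This is across loci of the same libraries, which are not independent replicates. Of 216 copies called higher in ORF2p RIP with such neighbours, 190 had a neighbour median above 0 and 161 at least 2-fold above, with medians of 2.91 for the copies and 1.95 for the neighbours. Of 352 called lower in ORF1p RIP, 314 had neighbours at least 2-fold lower, with medians of -5.22 and -5.14.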

How the data were processed

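Reads of 17 RIP and total RNA libraries of N2102Ep cells were aligned to hg38 with STAR, per the submitters' processing notes. Per the labels' protocols, RNA was taken from the affinity media with TRIzol and phenol-chloroform, treated with DNase, and made into libraries with the Trio RNA-seq kit after rRNA depletion. The authors deposited 1 table of each estimated count per repeat locus, made from the aligned reads and not normalized. Of its values above 0, 78.2% were whole, and the counting program and its division of shared reads are not given here. Of its value columns, 17 were used and 43 matched no labelled sample.

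Counts were summed by subfamily or kept by locus, rounded, and scaled by TMM (levels are in CPM). edgeR 4.0.16 (R 4.3.3) fitted quasi-likelihood models to the 17 libraries, with no term besides group. Its filter used a minimum count of 10 for subfamilies (1074 tested) and 50 for loci (71437 tested). P-values were Benjamini-Hochberg adjusted over all features tested, and a call needed an adjusted p under 0.05 and 2-fold. DESeq2 1.42.0 was an alternative, and the fits were tested on simulated data. Alternatives also covered scaling, filters, rounding, the replicate block, the total RNA series, leading copies and each replicate left out.

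All subfamilies were named, with the 10 loci of highest mean level and, per comparison, up to 4 called loci each way with the largest change, no overlap between groups and at least 2 CPM. A locus that met this rule is not reported here. Leading copies outside this rule were chosen after their values were seen. The members and lists were chosen with earlier results of these data known. Same-numbered replicates did not deviate together in all pairs of any comparison, so numbers were not treated as pairs. Intervals of counting error do not cover the division of shared reads. Gene spans and promoter windows came from RefSeq (GRCh38.p14), without exons.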

Additional observations from a re-analysis of the deposited data

Results flagged for a closer look

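Of 75 groups of 4 to 10 libraries checked with Dixon's test, 13 had a library far from the others. Chance flags about 1 in 20 of independent checks. These checks shared libraries and reads, so that rate cannot be set against 13 of 75. In 12 of the 13 groups the library was ORF1p RIP replicate 3, the highest of its group. Its L1PB share of repeat reads was 1.10%, against 0.813% to 0.846% in the other ORF1p RIP libraries. Its summed level was 6899.9 CPM for L1PB1 (others 3684 to 3773), 1225 CPM for L1PB2 (706 to 728), 2182 CPM for L1PB4 (1345 to 1393), 516 CPM for L1PB (281 to 298), 878 CPM for L1PBa (566 to 589) and 114 CPM for L1PBb (77.5 to 79.3).

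Among single copies, the same library had 453 CPM at chr7:93807211-93809400 (others 134 to 149.5), 46.9 CPM at chr6:125686840-125688612 (13.98 to 16.99), 289 CPM at chrX:102912636-102915179 (68.1 to 76.7), 67.8 CPM at chr4:129068225-129073184 (22.5 to 26.1) and 10.1 CPM at chr20:11466541-11470280 (2.88 to 3.35). The remaining case was total RNA replicate 3, with 12.7 CPM at chrX:102911046-102912323, against 6.30 to 8.06 CPM in the other 5 total RNA libraries. The cause was not tested.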

How the results depend on the processing

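Of the counts and shares recomputed under the alternatives, 578 values stayed within the limit for the same result and 83 moved; of values for single subfamilies and copies, 4611 kept direction and side of the threshold, 50 newly passed, 109 no longer passed and 2 reversed. The reversals were against total RNA series b alone, chr6:125686840-125688612 in ORF1p RIP (0.59) and chr21:28087586-28090806 in ORF2p RIP (1.05). For subfamilies, library totals gave 1 lower in ORF1p RIP over mock IP and 0 higher in ORF2p RIP over total RNA. Without leading copies, 1 was higher in ORF2p RIP over mock IP, 1 in ORF2p RIP over ORF1p RIP and 0 in ORF2p RIP over total RNA, and 0 lower in ORF1p RIP over total RNA. Series b alone gave 5 higher in ORF2p RIP and 0 lower in ORF1p RIP, series bl alone 1 higher in ORF2p RIP, and copies outside gene spans 1 higher in ORF2p RIP and 2 lower in ORF1p RIP, each over total RNA.

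For copies, a minimum count of 20 (2256 L1PB copies) gave 452 higher and 129 lower in ORF2p RIP over mock IP, 462 and 866 in ORF1p RIP over mock IP, 1069 and 539 in ORF2p RIP over ORF1p RIP, 499 and 361 in ORF2p RIP over total RNA, 471 and 992 in ORF1p RIP over total RNA, and 7 lower in mock IP over total RNA. A minimum of 100 (555 copies) gave 36 lower in ORF2p RIP over mock IP, 116 and 243 in ORF1p RIP over mock IP, 320 and 132 in ORF2p RIP over ORF1p RIP, 186 and 116 in ORF2p RIP over total RNA, 99 and 283 in ORF1p RIP over total RNA, and 7 and 7 in mock IP over total RNA; the first tests more copies and the second fewer. Fitting only the groups compared gave 111 lower in ORF1p RIP over mock IP, 266 and 134 in ORF2p RIP over ORF1p RIP, 129 and 286 in ORF1p RIP over total RNA, and 7 and 6 in mock IP over total RNA. Library totals gave 136 lower in ORF2p RIP over mock IP, and over total RNA 340 lower in ORF2p RIP and 31 in mock IP; they shifted the median of all subfamilies by -0.31 in ORF2p RIP over mock IP and -0.42 in ORF2p RIP over total RNA. Over series b alone, 493 were higher and 51 lower in ORF2p RIP, 397 higher in ORF1p RIP, and 268 higher and 6 lower in mock IP. Over series bl alone, 354 were lower in ORF2p RIP, and 47 higher and 410 lower in mock IP. DESeq2 gave 23 and 46 in mock IP over total RNA. With the replicate block, the subfamily counts were unchanged, and over total RNA 100 copies were lower in ORF2p RIP, and 0 higher and 0 lower in mock IP. Shares of all tested loci are not given beside these counts, which thus describe L1PB copies alone. Causes other than the number of loci or samples were not tested.

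Leaving out each replicate in turn, subfamily counts ranged over 2 to 2 higher in ORF2p RIP over mock IP, 0 to 1 lower in ORF1p RIP over mock IP, 3 to 4 higher in ORF2p RIP over ORF1p RIP, 1 to 2 higher in ORF2p RIP and 1 to 1 lower in ORF1p RIP over total RNA. Copies higher and lower ranged over 257 to 312 and 37 to 97 in ORF2p RIP over mock IP (37 without mock IP replicate 1), 185 to 252 and 405 to 445 in ORF1p RIP over mock IP, 533 to 560 and 209 to 260 in ORF2p RIP over ORF1p RIP, 273 to 294 and 156 to 294 in ORF2p RIP over total RNA, 167 to 215 and 473 to 517 in ORF1p RIP over total RNA, and 4 to 27 and 0 to 104 in mock IP over total RNA (98 and 104 lower without total RNA replicates 1 and 2). The L1PB share ranged over 1.68% to 1.73% in ORF2p RIP, 0.833% to 0.929% in ORF1p RIP, 0.917% to 0.950% in mock IP and 1.1998% to 1.40% in total RNA. Without the 10 leading copies it was 1.22% in ORF2p RIP and 0.844% in mock IP, and outside gene spans 2.39% in ORF2p RIP, 1.26% in ORF1p RIP and 1.12% in mock IP.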
